A study of Homo sapiens with 11 samples.

Results

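The RNA of HEK293T cells exposed to 1 or 3 µM of the compound AA132 was compared with that of the same cells exposed to 0.1 or 0.3 µM. These onset doses lie between concentrations at which the stress markers HSPA5 and HMOX1 stay near their vehicle level and the higher concentrations at which they stand well above it. The comparison pools the 3 numbered libraries of 1 µM with the 3 of 3 µM, and likewise the libraries of 0.1 and 0.3 µM, so it uses 12 of the 33 libraries in the series, from 4 of its 11 samples. In the fit of these 12 libraries, pooling leaves the contrast unchanged if a library labelled 1 µM belongs to 3 µM or the reverse. The comparisons with vehicle and 6 µM average the labelled doses in a fit of all 33 libraries, where such an exchange can change the result. HEK293T is an established human embryonic kidney cell line, labelled wild type. All cells were exposed for 6 h. The other conditions were vehicle (0.1% DMSO), AA132 at 6, 10, 15 and 30 µM, the compound AA147 at 10 µM and thapsigargin (Tg, an inhibitor of the calcium pump of the endoplasmic reticulum) at 500 nM. Of these, vehicle and 6 µM AA132 are used below. The labels give 1 sample a condition and do not say whether its 3 numbered columns are separate cultures. The p-values thus measure the spread between these libraries, which may be technical. In the pooled fit that spread also holds any difference between the doses of a group.

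The series concerns compounds that switch on chosen arms of the response by which cells keep proteins folded in the endoplasmic reticulum (ER). Misfolded protein in the ER activates 3 sensors. ATF6 travels to the Golgi, where cleavage frees a transcription factor that raises ER chaperones such as BiP, the product of HSPA5. IRE1 splices the XBP1 mRNA to give XBP1s, a factor for secretion and ER-associated degradation (ERAD) genes, and PERK slows translation while allowing ATF4 and CHOP (DDIT3) to be made, as part of the integrated stress response (ISR). Electrophilic compounds can also modify KEAP1, which frees NRF2 to raise antioxidant genes such as HMOX1, and can activate HSF1, the factor of the cytosolic heat shock response. The aryl hydrocarbon receptor (AHR) is a ligand-activated factor that drives CYP1A1, CYP1B1 and TIPARP.

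HSPA5 lies on chromosome 9 from 125234853 to 125241382 on the minus strand, and HMOX1 on chromosome 22 from 35380361 to 35394214 on the plus strand (GRCh38, GENCODE release 44). ATF6 acts through the ER stress element (ERSE), CCAAT and CCACG separated by 9 bases of any kind. RefSeq promoter windows of 300 bases (250 before to 50 after a start, GRCh38.p14) were searched on both strands for exact matches. That element was found in 5 of the 12 ATF6 genes listed for this report (HSPA5, HSP90B1, CALR, CRELD2 and PDIA6), against 0.15% of the 11644 tested genes with an entry and 0.08% of all 35116 windows. The windows of HSPA5 and HSP90B1 are shown as ATF6 genes that hold the element, and those of ERO1B and GCLM because these genes stand high in the same libraries. HSPA5 and HMOX1 were set as promoters to print, but HMOX1 had no entry and was not searched. The other windows were chosen after the values were seen. Capitals mark the ERSE in the windows of HSPA5 (chr9:125241294-125241593, minus strand), HSP90B1 (chr12:103930160-103930459, plus strand) and ERO1B (chr1:236281909-236282208, minus strand), read 5′ to 3′ in the direction of the gene. In GCLM (chr1:93909381-93909680, minus strand) they mark the antioxidant response element TGANNNNGC.
HSPA5: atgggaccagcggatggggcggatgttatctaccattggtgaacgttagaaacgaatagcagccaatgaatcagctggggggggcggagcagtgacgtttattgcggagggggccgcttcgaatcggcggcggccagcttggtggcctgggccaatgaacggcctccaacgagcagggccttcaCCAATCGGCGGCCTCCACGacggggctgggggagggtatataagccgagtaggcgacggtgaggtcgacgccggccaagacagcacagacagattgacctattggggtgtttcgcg
HSP90B1: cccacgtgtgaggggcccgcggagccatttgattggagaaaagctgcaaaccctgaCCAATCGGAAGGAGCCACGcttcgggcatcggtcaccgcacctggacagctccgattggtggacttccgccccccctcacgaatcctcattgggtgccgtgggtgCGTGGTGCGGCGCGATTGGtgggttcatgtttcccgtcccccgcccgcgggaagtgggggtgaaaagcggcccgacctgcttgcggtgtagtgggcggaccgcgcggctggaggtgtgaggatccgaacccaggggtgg
ERO1B: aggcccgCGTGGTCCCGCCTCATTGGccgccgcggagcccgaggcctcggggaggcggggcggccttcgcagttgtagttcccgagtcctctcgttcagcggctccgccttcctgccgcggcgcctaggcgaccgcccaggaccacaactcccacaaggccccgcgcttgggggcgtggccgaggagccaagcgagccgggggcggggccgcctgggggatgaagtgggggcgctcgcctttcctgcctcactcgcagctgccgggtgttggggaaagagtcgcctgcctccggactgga
GCLM: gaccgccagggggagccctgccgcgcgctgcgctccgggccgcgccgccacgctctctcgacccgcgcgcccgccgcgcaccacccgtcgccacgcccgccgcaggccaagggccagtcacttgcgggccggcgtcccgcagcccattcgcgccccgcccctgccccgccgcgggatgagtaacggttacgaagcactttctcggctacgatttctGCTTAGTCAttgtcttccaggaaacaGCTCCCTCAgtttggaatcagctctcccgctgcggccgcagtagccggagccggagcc
Only exact matches were sought, so copies with a mismatch were not counted. HSPA5 holds 1 exact match to the ERSE, which begins 66 bases before the start. HSP90B1 holds 2, of which the second reads on the opposite strand, and the ERO1B and GCLM matches also read on the opposite strand. The antioxidant element is common: 50.4% of tested genes with an entry hold a match, as do 7 of the 14 listed NRF2 genes with an entry. The C/EBP-ATF element TGATGNAA was in 6 of 21 listed PERK and ISR genes with an entry, against 2.71% of tested genes. The heat shock element (GAA, 2 bases, TTC, 2 bases, GAA) was in 7 of 17 listed heat shock genes with an entry, against 0.52%. The AHR core GCGTG, held by 57.6% of tested genes, was in 3 of 4 listed AHR targets with an entry. CYP1B1 had no entry and was not searched. A match describes letters only, and no binding was measured.

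Levels are given as CPM, counts per 1e6 counts of the library after scaling by the trimmed mean of M values (TMM). Library totals of the 12 libraries ran from 36.72 to 37.71 M counts. Within a dose, libraries differed by more than counting error, with a chi-square per degree of freedom of 4.50 to 14.1 over 12 pairs. The HEK293T markers KRT8, KRT18, VIM, NEFL, NEFM and PAX2 were detected in every group, with a summed level of 2509 to 2877 CPM at the onset doses and 2528 to 2733 at the low doses. The sum of 10 markers of blood, endothelial, liver and fibroblast cells was 34.4 to 48.4 and 39.4 to 47.5 CPM, nearly all of it COL1A1. CD3E and DCN were at 0 in all 12 libraries.

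The libraries of the onset doses did not sort by their labels. The library labelled 1 µM number 1 and the libraries labelled 3 µM numbers 1 and 2 stood high in ER stress and antioxidant genes, whereas those labelled 1 µM numbers 2 and 3 and 3 µM number 3 lay near the low doses. No library was moved or regrouped. Results are given for the pooled doses as labelled, and with the libraries labelled 1 µM number 1 and 3 µM number 3 both left out, a choice made after seeing the data. That setting keeps 2 libraries at each onset dose. Not every gene set that library apart in the same direction: ANKRD1, described below, was at 120 CPM in the library labelled 1 µM number 1, below the other 5 onset libraries, which ran from 131 to 165.

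HSPA5 stood at 1660.0, 1028 and 1093 CPM in the libraries labelled 1 µM and at 1921, 1969 and 1042 CPM in those labelled 3 µM. At the low doses it ran from 948 to 1099 with a median of 1062. Of the onset libraries, 3 lay above the low-dose range and 3 within it, so the groups overlapped. The means were 1452 ± 449 CPM at the onset doses and 1048 ± 58.0 at the low doses (SD, n = 6 each), a fitted log2 fold change of 0.47 (SE 0.12) with an adjusted p of 0.231 (edgeR). An exact two-sided permutation test of its log2 CPM gave p = 0.0823, where 924 orderings allow a smallest p of 0.00216. The vehicle libraries had 1025, 973 and 881 CPM, and the 6 µM libraries 2406, 2376 and 2333.

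HMOX1, which encodes the heme-degrading enzyme heme oxygenase 1, showed the same division more widely. Its level was 39.8, 11.5 and 12.1 CPM in the libraries labelled 1 µM and 49.3, 43.9 and 14.2 in those labelled 3 µM, against 10.99 to 13.7 with a median of 12.5 at the low doses. The same 3 libraries as for HSPA5 stood far above the highest low-dose level, and the other 3 lay at or close to the low-dose range. The means were 28.5 ± 17.7 and 12.3 ± 1.08 CPM (SD, n = 6 each), a log2 fold change of 1.21 (SE 0.26) with an adjusted p of 0.149 (edgeR) and an exact permutation p of 0.0714. It passed the threshold in edgeR when the library labelled 1 µM number 2 was left out (log2 fold change 1.37, adjusted p = 0.0247) or number 3 (1.37, adjusted p = 0.0391). Each of these settings leaves out an onset library in which HMOX1 was among the lowest, so their p-values are descriptive. Without both the libraries labelled 1 µM number 1 and 3 µM number 3, the log2 fold changes were 1.25 for HMOX1 and 0.52 for HSPA5, with adjusted p-values of 0.175 and 0.218.

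**Figure D1:**
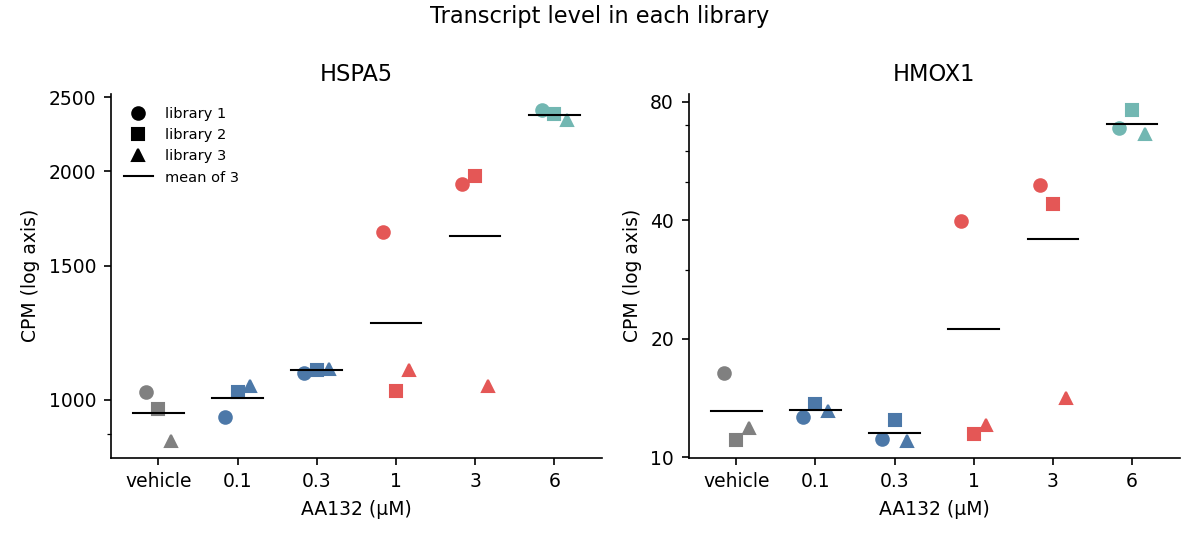
Level of HSPA5 and HMOX1 (CPM, log axis) in each library of vehicle and of AA132 at 0.1 to 6 µM, with the mean of 3 as a bar. At 1 µM library 1, and at 3 µM libraries 1 and 2, stand above the 6 low-dose libraries, and the other 3 onset libraries do not rise above 1093 CPM of HSPA5 or 14.2 CPM of HMOX1.

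Over all genes, the onset doses were not separated from the low doses by the test, whose spread includes any difference between pooled doses. Of 16409 genes tested, 0 (0%) were called at an adjusted p under 0.05 by edgeR, and the smallest adjusted p was 0.0886. By sign alone, 51.2% of the genes tested were higher. At an unadjusted p under 0.05 there were 1515 genes, 793 higher (4.83%) and 722 lower (4.4%). DESeq2 called 44 genes, 16 higher and 28 lower, and limma voom called 1. All 6 onset libraries lay above all 6 low-dose libraries for 34 genes (0.207%) and below them for 41 (0.25%). Leaving out 1 library moved the edgeR count to 14 without 1 µM number 3, 5 without 1 µM number 2, and 1 without 1 µM number 1 or 3 µM number 1. Without a filter on low counts edgeR called 54 of 27554 genes, 42 higher (0.152%) and 12 lower (0.0436%), among them HSPA5 (adjusted p = 0.000148) and HMOX1 (adjusted p = 9.53e-07) at the same fold changes. For both genes the groups overlapped, and the exact permutation p-values were 0.0823 and 0.0714. That fit also called entries that the filter removes, such as TRIM39-RPP21 at a log2 fold change of 9.66 and P2RY11 at 9.46. Its adjusted p-values are therefore given as a setting and not as the result.

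The ATF6 genes showed the most even shift among the lists. All 12 were higher at the onset doses, from 0.09 for PDIA6 to 0.47 for HSPA5 on the log2 scale, with a median of 0.25 against 0.00 over all genes tested. At an unadjusted p under 0.05, 12 of 12 were higher, beside 4.83% of all genes, and none was called after adjustment in the main test. With no filter on low counts, 6 of the 12 passed the threshold: HSPA5, MANF, SDF2L1, PDIA4, HSP90B1 and CRELD2, with adjusted p-values from 0.000148 to 0.0324 (edgeR). The library labelled 1 µM number 1 and those labelled 3 µM numbers 1 and 2 each had 12 of 12 ATF6 genes above the highest low-dose library. The libraries labelled 1 µM numbers 2 and 3 had 1 each and 3 µM number 3 had 2, where 13.2% to 18.2% of all genes tested lay above that level in an onset library. The median of the list was 0.35, -0.01 and 0.02 above the low-dose mean in the libraries of 1 µM and 0.44, 0.47 and 0.01 in those of 3 µM. Without the libraries labelled 1 µM number 1 and 3 µM number 3 the median over the list was 0.26. Within the low doses, 11 of the 12 were also higher at 0.3 than at 0.1 µM, with a median of 0.06 and 0 called. A count by direction alone thus does not set the onset doses apart.

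HSP90B1, the ER member of the HSP90 chaperones, had 1606, 1289 and 1281 CPM at 1 µM and 1832, 1869 and 1278 at 3 µM, with 1143 to 1370 and a median of 1250 at the low doses (log2 fold change 0.28, SE 0.08, adjusted p = 0.273). PDIA4, a protein disulfide isomerase, had 667, 466 and 474 CPM at 1 µM and 716, 723 and 466 at 3 µM, with 441 to 479.7 at the low doses (log2 fold change 0.33). MANF, a secreted ER stress protein, had 128, 98.4 and 96.6 CPM at 1 µM and 149.9, 152 and 96.8 at 3 µM, with 88.2 to 100.2 at the low doses (log2 fold change 0.37). In these 3 genes the high values again came from the 3 libraries named above, and the others fell inside the low-dose range.

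SDF2L1, a subunit of an ER chaperone complex, was the ATF6 gene whose groups did not overlap. It had 60.2, 50.7 and 49.9 CPM at 1 µM and 65.4, 67.0 and 59.7 at 3 µM, all above the low-dose range of 43.1 to 49.2 with a median of 48.6 (log2 fold change 0.31, SE 0.06, adjusted p = 0.0931, edgeR). For this gene the library labelled 3 µM number 3 was well above the low doses too. SDF2L1 passed the threshold in DESeq2, and in edgeR without 1 µM number 2 (adjusted p = 0.0247) or number 3 (adjusted p = 0.0384). Each of these edgeR settings leaves out an onset library in which SDF2L1 was among the lowest, so their p-values are descriptive. HERPUD1, an ERAD component induced by ER stress, had 36.2, 29.9 and 29.1 CPM at 1 µM and 41.0, 42.4 and 28.4 at 3 µM, with 24.7 to 31.1 at the low doses (log2 fold change 0.27, adjusted p = 0.325). The other ATF6 genes, CALR, DNAJB11, HYOU1, CRELD2, PDIA6 and SEL1L, had log2 fold changes of 0.09 to 0.23.

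**Figure D2:**
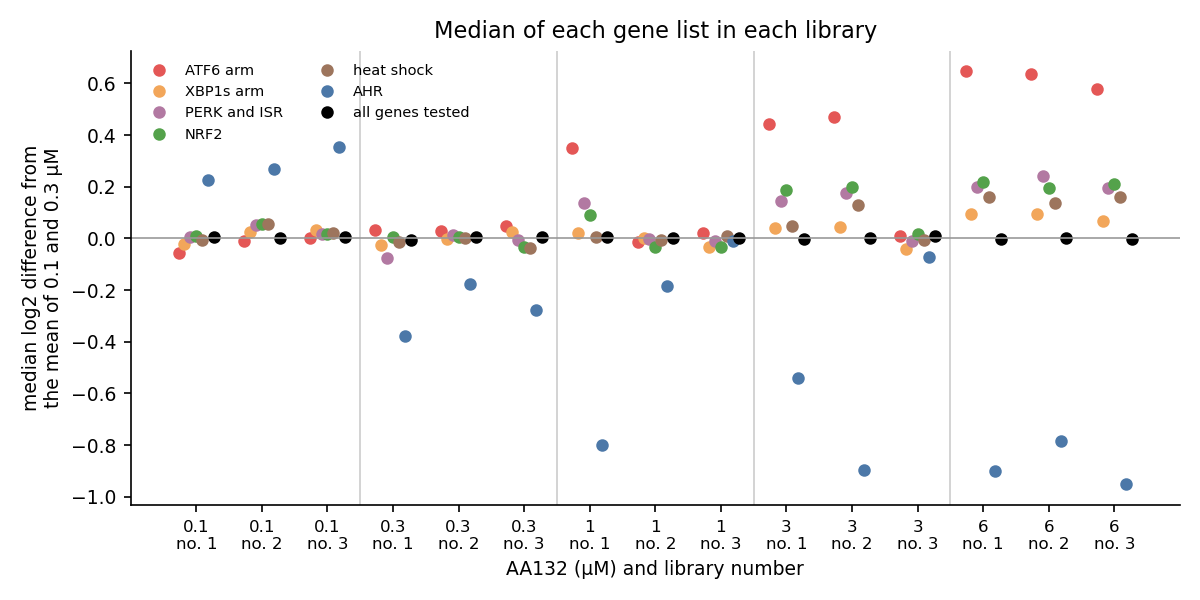
Median log2 difference of each gene list from the mean of the 6 low-dose libraries, for every library of AA132 at 0.1 to 6 µM (x axis, labelled dose and library number). The ATF6 list stands at 0.35 to 0.47 in 3 onset libraries and between -0.01 and 0.02 in the other 3, while the median over all genes tested runs from -0.01 to 0.01.

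The XBP1s genes did not shift as a group. Of 15 tested, 7 were higher and 8 lower, with a median log2 fold change of -0.01, and 0 were called. DNAJB9, an ER co-chaperone of BiP, had 10.0, 10.1 and 9.88 CPM at 1 µM and 10.7, 11.9 and 9.96 at 3 µM, against 9.48 to 10.8 at the low doses (log2 fold change 0.04, SE 0.07, adjusted p = 0.891). The groups overlapped almost wholly. The 2 members with an unadjusted p under 0.05 were DNAJC3, another ER co-chaperone, at a log2 fold change of 0.27, and EDEM1, an ERAD lectin, at 0.14. Of all genes, 4.83% were higher at that level. DNAJC3 had 24.6, 19.6 and 18.95 CPM at 1 µM and 25.5, 26.7 and 17.9 at 3 µM, with 15.0 to 19.7 at the low doses, the division by library seen in the ATF6 genes. Translocon and transport genes of the list, SEC61A1, SEC61B, SSR1, SSR3, SEC31A and STT3A, had log2 fold changes between -0.08 and -0.01.

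Among the protein disulfide isomerase family and ER oxidases, 11 of 17 were higher, with a median of 0.02, and 0 were called. ERO1B, an ER oxidase that reoxidises protein disulfide isomerase, shared the smallest adjusted p of the comparison. It had 34.5, 27.7 and 28.4 CPM at 1 µM and 36.2, 32.1 and 27.9 at 3 µM, all above the low-dose range of 24.3 to 25.4 (log2 fold change 0.32, SE 0.06, adjusted p = 0.0886, edgeR). Its vehicle libraries ran from 17.0 to 31.4 CPM, wider than the difference between the pooled doses. ERO1A, the other oxidase of this kind, had a log2 fold change of 0.02. Of the 17 ERAD genes, 13 were higher with a median of 0.03 and 0 were called. The largest differences there were those of DERL3, a channel component, at 0.28, HERPUD1 at 0.27 and SELENOS, listed in the table under its older name VIMP, at 0.17.

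The PERK and ISR genes showed small positive differences. Of 22, 21 were higher (51.2% of all genes tested) with a median of 0.06, and 0 were called. At an unadjusted p under 0.05, 5 were higher (DDIT3, ATF3, TRIB3, SLC3A2 and CEBPB), beside 4.83% of all genes. DDIT3, the transcription factor CHOP, had 11.1, 8.07 and 7.42 CPM at 1 µM and 13.0, 11.4 and 8.52 at 3 µM, with 6.57 to 8.99 and a median of 7.18 at the low doses (log2 fold change 0.41, SE 0.11, adjusted p = 0.274). Its 3 highest libraries were those with the highest HSPA5. SLC3A2, the heavy chain of amino acid transporters, had 245, 195 and 193 CPM at 1 µM and 299.99, 295 and 209 at 3 µM, with 200.01 to 219 at the low doses (log2 fold change 0.18). ATF4 itself had a log2 fold change of 0.04, CHAC1 of 0.04 and ASNS, asparagine synthetase, of 0.02, each within the spread of the libraries. Members above the highest low-dose library numbered 10, 2 and 2 of 22 in the libraries of 1 µM and 13, 15 and 4 in those of 3 µM.

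**Figure D3:**
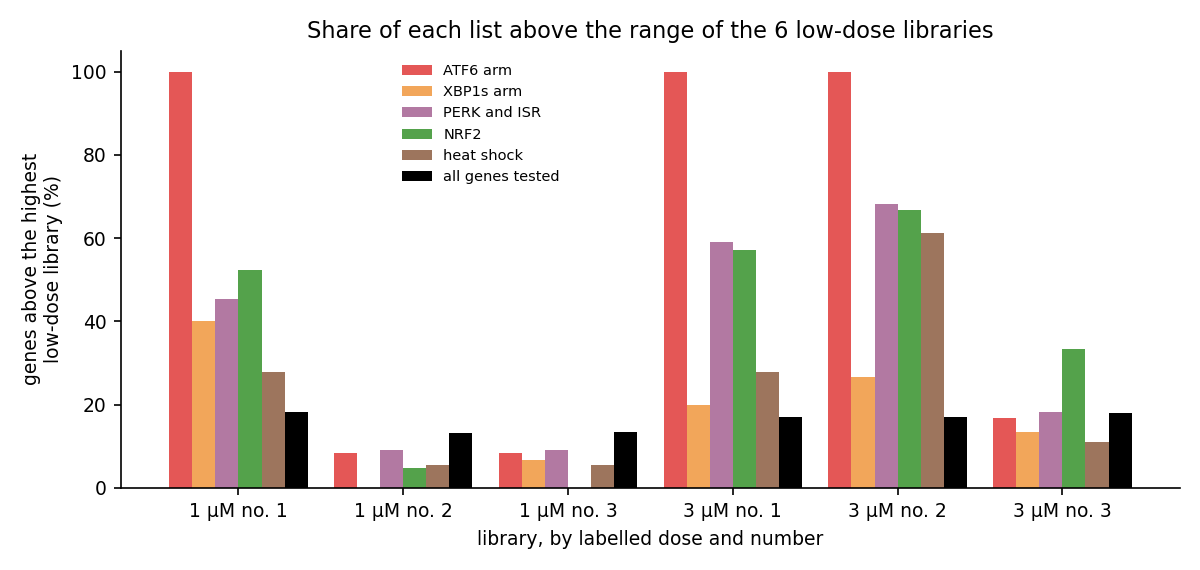
Percentage of each gene list that lies above the highest of the 6 low-dose libraries (y axis), for each onset library by labelled dose and number (x axis). The ATF6 bars reach 100% in 3 libraries and stay at or below 16.7% in the other 3, where all genes tested lie between 13.2% and 18.2%.

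The NRF2 genes were split by member. Of 21, 14 were higher with a median of 0.06, and 0 were called. At an unadjusted p under 0.05, 9 were higher and 1 lower, beside 4.83% and 4.4% of all genes. After HMOX1 the largest differences were those of OSGIN1 (0.64), SLC7A11 (0.48) and GCLM (0.32). SLC7A11, the cystine transporter, which is also an ATF4 target, had 13.3, 5.06 and 5.17 CPM at 1 µM and 15.5, 14.5 and 6.50 at 3 µM, with 5.53 to 8.28 at the low doses (SE 0.21, adjusted p = 0.494). Without the library labelled 3 µM number 1 its log2 fold change was 0.31. Its 1 µM libraries 2 and 3 lay below every low-dose library. GCLM, a subunit of the enzyme that limits glutathione synthesis, had 30.6, 22.1 and 23.0 CPM at 1 µM and 34.99, 35.6 and 19.7 at 3 µM, with 20.6 to 24.2 at the low doses (SE 0.11, adjusted p = 0.354). TXNRD1, thioredoxin reductase, had 291, 249.7 and 253 CPM at 1 µM and 319.7, 332 and 253 at 3 µM, with 241 to 262 at the low doses (log2 fold change 0.18). The enzymes of the pentose phosphate pathway in the list did not follow: PGD had a log2 fold change of -0.09, TALDO1 of -0.02 and TKT of -0.05. PGD was the member lower at an unadjusted p under 0.05.

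The heat shock list was nearly flat, with 15 of 18 higher, a median of 0.02 and 0 called. At an unadjusted p under 0.05, 3 were higher, beside 4.83% of all genes. The 3 were the inducible HSP70 genes HSPA1A (0.29), HSPA1B (0.27) and HSPA6 (0.40). HSPA1A had 1893, 993 and 1059 CPM at 1 µM and 1690.0, 1629 and 1117 at 3 µM, with 1091 to 1175 at the low doses. Its highest value was in the library labelled 1 µM number 1, unlike HSPA5 and HMOX1, which were highest at 3 µM. HSPA1A and HSPA1B are near-identical copies whose reads the counting could split between them. DNAJB1, an HSP70 co-chaperone and heat shock target, had 154, 138 and 140 CPM at 1 µM and 139, 155 and 138 at 3 µM, with 132.2 to 147.4 at the low doses (log2 fold change 0.05, adjusted p = 0.756).

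**Figure D4:**
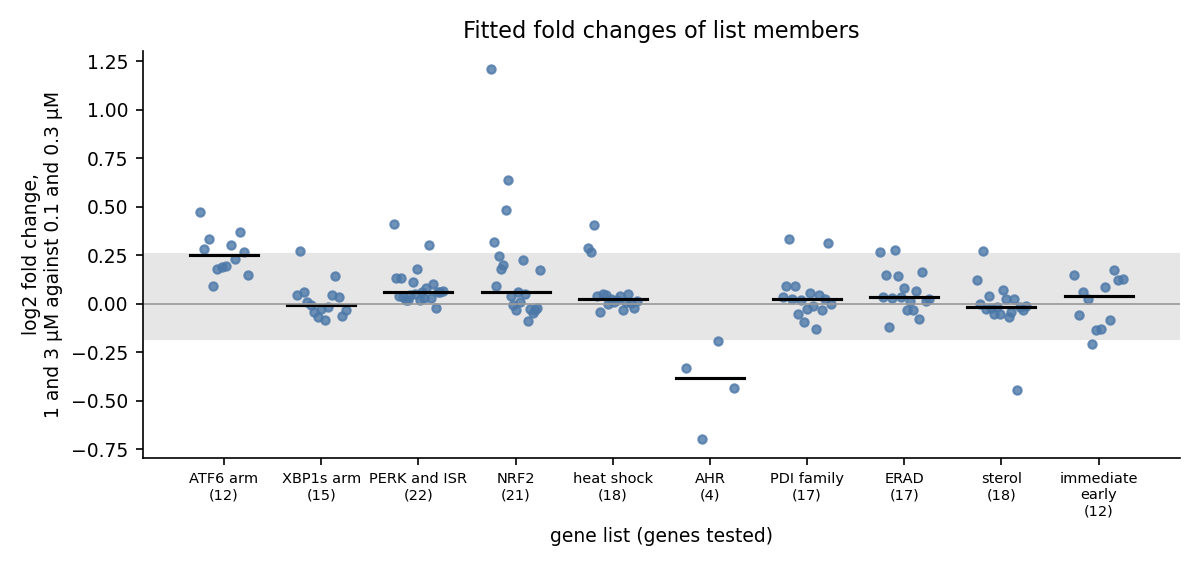
Fitted log2 fold change of each tested list member, 1 and 3 µM against 0.1 and 0.3 µM, with the list median as a bar and the number of genes in brackets. The grey band spans the 5th to 95th percentile of all genes tested. All 12 ATF6 genes lie above 0, all 4 AHR targets below 0, and HMOX1 at 1.21 is the highest point.

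Targets of AHR went the other way, with all 4 tested genes lower, a median of -0.38, 2 lower at an unadjusted p under 0.05 (4.4% of all genes) and 0 called. TIPARP, an ADP-ribosyltransferase that represses AHR, had 19.65, 29.4 and 33.4 CPM at 1 µM and 18.4, 19.2 and 30.6 at 3 µM, with 27.3 to 43.5 and a median of 33.2 at the low doses (log2 fold change -0.43, SE 0.13, adjusted p = 0.291). The 3 low values were those of the libraries with high HSPA5. CYP1B1, a cytochrome P450 enzyme, had 2.81, 4.44 and 6.26 CPM at 1 µM and 2.64, 2.97 and 4.89 at 3 µM, with 4.46 to 7.99 at the low doses (log2 fold change -0.70, SE 0.17, adjusted p = 0.192). CYP1A1, the classical AHR-driven cytochrome, had 0.598, 1.43 and 0.990 CPM at 1 µM and 1.02, 0.530 and 1.09 at 3 µM, with 0.721 to 1.88 at the low doses (log2 fold change -0.33, SE 0.26, adjusted p = 0.727). The CYP1A1 value was -0.15 without the library labelled 0.1 µM number 2 and -0.21 without 3 µM number 2. With no filter on low counts, TIPARP (adjusted p = 0.00400) and CYP1B1 (adjusted p = 0.00130) passed the threshold by edgeR. The low doses themselves differed in these genes: TIPARP had 37.8, 38.3 and 43.5 CPM at 0.1 µM and 28.0, 27.3 and 28.5 at 0.3 µM. The list median between 0.3 and 0.1 µM was -0.44, with 0 genes (0%) called in either direction in that comparison. CYP1A2 had no count in the 12 libraries and was not tested.

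**Figure D5:**
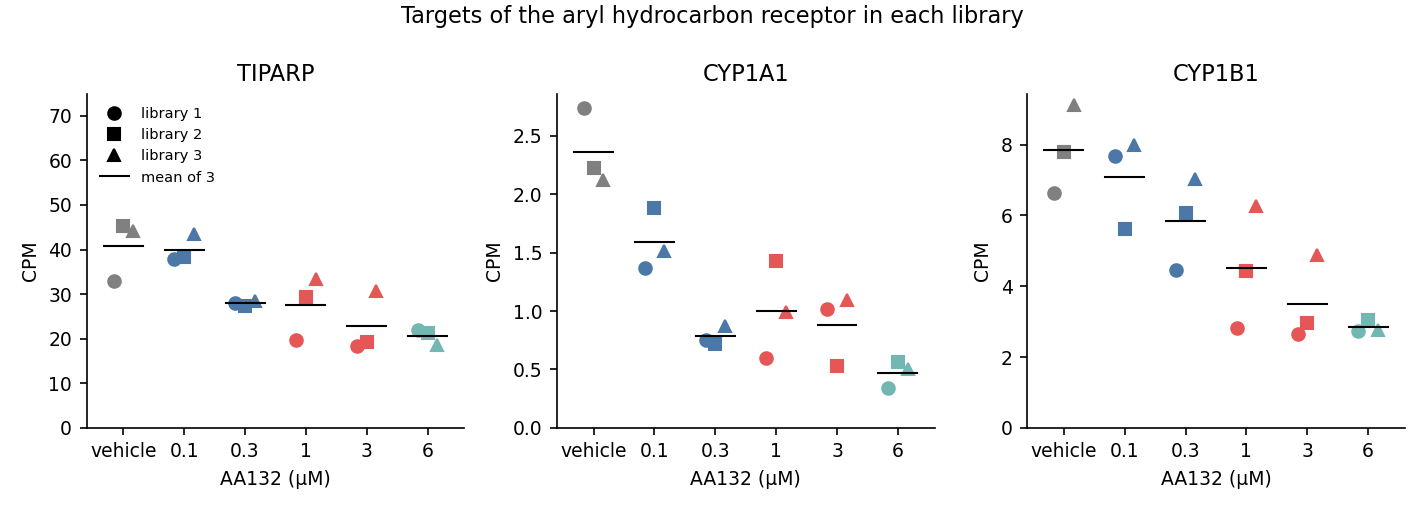
Level of TIPARP, CYP1A1 and CYP1B1 (CPM) in each library of vehicle and of AA132 at 0.1 to 6 µM, with the mean of 3 as a bar. Vehicle libraries of CYP1A1 sit at 2.12 to 2.74 CPM and all 6 onset libraries at or below 1.43.

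The sterol list had 6 of 18 higher with a median of -0.02, and the immediate early list 7 of 12 with a median of 0.04. No gene of either was called. KLF6, an early response transcription factor, had 63.9 to 71.6 CPM in the onset libraries, all above the low-dose range of 55.3 to 61.9 (log2 fold change 0.18, adjusted p = 0.167). Of 5 metallothionein list genes tested, 4 were higher with a median of 0.09, and 0 were called.

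Outside the lists, the genes with the smallest p-values were chosen after their values were seen. ANKRD1, a transcription cofactor, had 120, 150.2 and 131 CPM at 1 µM and 165, 165 and 133 at 3 µM, with 113 to 122 at the low doses (log2 fold change 0.31, SE 0.06, adjusted p = 0.0886). It was called without the libraries labelled 1 µM number 1 and 3 µM number 3 (log2 fold change 0.40, adjusted p = 0.00120, edgeR). That setting was chosen after the data were seen and leaves out the onset library with the lowest ANKRD1, so this p-value is descriptive. MAPK1IP1L had 46.6 to 53.1 CPM in the onset libraries and 53.4 to 66.3 in the low-dose libraries, with no overlap (log2 fold change -0.25, adjusted p = 0.0886). DAZAP2 had 183 to 207 CPM in the onset libraries and 206 to 239.8 in the low-dose libraries, which overlap only at the edge (log2 fold change -0.22, adjusted p = 0.0886). RHOA, a small GTPase, was lower in all 6 onset libraries (log2 fold change -0.15, adjusted p = 0.116), and its relative RHOB was higher in all 6 (0.29, adjusted p = 0.116).

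Transcripts of the mitochondrial genome moved with the same libraries. Their median difference from the low-dose mean was -0.45, -0.01 and 0.04 in the libraries of 1 µM and -0.21, -0.23 and -0.05 in those of 3 µM. Among the low doses, the library labelled 0.1 µM number 2 stood at 0.26 and the others ran from -0.10 to 0.02. The libraries of 6 µM were at -0.14, 0.02 and -0.15, so there was no further fall at that dose. Of 13 genes, 11 were lower at the onset doses, 8 of them at an unadjusted p under 0.05, beside 4.4% of all genes. Their summed level was 23928 to 33096 CPM at the onset doses and 30279 to 37953 at the low doses. Its part in the differences above was not tested. In bulk RNA, a change in every cell and a change in some of the cells cannot be told apart.

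Taken dose by dose in a fit of all 33 libraries (17793 genes tested), 1 µM against the low doses gave 0 called genes (0%), and 424 at an unadjusted p under 0.05, while DESeq2 called 4. The comparison of 3 µM with the low doses gave 5, all higher (0.0281%). HMOX1 rose by 1.54 (SE 0.27), HSP90B1 by 0.41, MAP3K14, a kinase of the noncanonical NF-kappaB pathway, by 0.61 and ANXA1, annexin A1, by 0.31, each with an adjusted p of 0.0240, and ANKRD1 by 0.41 with an adjusted p of 0.0499. For HSPA5 that comparison gave a log2 fold change of 0.65 (SE 0.13) with an adjusted p of 0.0583. The count was 35 without the library labelled 3 µM number 3 and 0 without 0.1 µM number 1 or 3, 0.3 µM number 1 or 2, or 3 µM number 1 or 2. Without both libraries that stood apart it was 46. The ATF6 median was 0.14 at 1 µM and 0.36 at 3 µM, and the difference between 1 and 3 µM was not tested. At 1 µM that value came from library 1 alone, as the library medians given above show. Since that library lay near 3 µM numbers 1 and 2, and 3 µM number 3 near the other 1 µM libraries, the values by dose hold only for the libraries as labelled.

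Against vehicle, targets of AHR were lower at the onset doses. They were lower at 0.3 µM already. Relative to the low-dose mean, the list median was 0.17 to 0.46 in the vehicle libraries and -0.38 to -0.18 at 0.3 µM. The libraries labelled 1 µM numbers 2 and 3 and 3 µM number 3, at -0.18, -0.01 and -0.07, were not below that range. The remaining onset libraries ran from -0.89 to -0.54. The test called 4 genes, all lower (0.0225%): TIPARP fell by 0.71 (SE 0.12, adjusted p = 0.0296), CYP1A1 by 1.33 (SE 0.24, adjusted p = 0.0296), CYP1B1 by 0.98 (SE 0.19, adjusted p = 0.0398) and CSRP2, a LIM-domain protein, by 0.34 (adjusted p = 0.0398), all by edgeR on the log2 scale. CYP1A1 had 2.74, 2.23 and 2.12 CPM in vehicle, above all 6 onset libraries, and TIPARP had 32.95, 45.3 and 44.2, of which the lowest lay below the onset library at 33.4. How many of all genes separate from vehicle as CYP1A1 does was not counted. ATF6 genes were higher by a median of 0.27, 12 of 12 in that direction, with 0 called. Vehicle number 1 stood apart in some of them, with 67.0 CPM of SDF2L1 against 41.2 and 43.5 in the other two. The count was 36 without 3 µM number 3, 22 without vehicle number 1, 7 without vehicle number 3, 2 without 1 µM number 2, and 0 without 1 µM number 1, 3 µM number 1 or 2, or vehicle number 2. Without both libraries that stood apart it was 16, and DESeq2 called 61. A fit of only the libraries compared called 0.

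The next dose, 6 µM, differed from the onset doses in 32 genes, 24 higher (0.135%) and 8 lower (0.045%). Among the higher were 6 of 12 ATF6 genes: HSPA5 rose by 0.72 (SE 0.13), MANF by 0.53, PDIA4 by 0.48, HYOU1 by 0.43, HSP90B1 by 0.42 and PDIA6 by 0.29, with adjusted p-values of 0.0147 to 0.0228 (edgeR). HMOX1 rose by 1.35 (SE 0.26, adjusted p = 0.0147), and with it the NRF2 genes TXNRD1 (0.41) and SRXN1, sulfiredoxin (0.53). XBP1 mRNA itself rose by 0.45, SLC3A2 by 0.56, JUN by 0.30 and the HSP70 gene HSPA6 by 0.91. Lower genes included the immediate early genes FOS (-0.87) and IER3 (-0.64). All 3 libraries of 6 µM lay above all 6 onset libraries in HSPA5 and HMOX1. The share of all genes separated in this way was not counted. The AHR targets were lower again by a median of -0.38 with 0 called. The count was 53 without 1 µM number 1, 12 without 3 µM number 3, 1 without 1 µM number 3 or 6 µM number 3, and 0 without 1 µM number 2 or 6 µM number 1 or 2. The comparisons with 0.1 and 0.3 µM, vehicle and 6 µM share the 6 onset libraries, so their results are not independent of each other. Those with vehicle and 6 µM also hold only for the libraries as labelled.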

How the data were processed

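Gene counts came from RNA sequencing of HEK293T cells. Libraries were made and sequenced by BGI on a DNBSEQ instrument, per the labels' protocols. The authors deposited expected counts, estimated read totals per gene on a linear scale per the file headers, not scaled between libraries. The submitters' processing notes name the build GRCh38.p7; the aligner, counter, annotation and use of strand are not given in the sources used here. A value of 0.009 stands in place of 0 in 43.5% of cells and was set to 0, and 3.22% of cells are fractional, so counts were rounded. Of 38074 entries, 98 sharing 45 names were summed, which left 38021 genes. Another 28 with names turned into dates stayed in the totals and are not named.

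Genes were tested with edgeR 4.0.16 (quasi-likelihood, R 4.3.3) with TMM scaling, the edgeR low-count filter and Benjamini-Hochberg adjustment at 0.05. The main fit held the 12 libraries in 2 pooled groups of 6. Other comparisons used 1 fit of all 33 libraries. DESeq2 1.42.0 and limma 3.58.1 (voom) were alternatives, with no filter, other scalings, other samples in the fit, a replicate block and each library left out. The log scale used a prior count of 2. Named genes were HSPA5, HMOX1, HERPUD1, DDIT3, DNAJB9, DNAJB1, SLC7A11, GCLM, CYP1A1, TIPARP, list genes and up to 8 called genes in each direction by fold change with at least 1 CPM. No gene was called in the main fit, and other names were chosen after their values were seen. Results for some genes are not reported here. The doses compared, the gene lists and the tests were chosen with earlier results of these data known. Counting error alone does not cover library preparation.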

Additional observations from a re-analysis of the deposited data

How the results depend on the processing

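The 10 genes followed at every dose and the list medians kept their direction under the alternatives run, except the XBP1s median (-0.01 to 0.01) and the sterol median (-0.02 to 0.01), which crossed 0. For the onset against the low doses, 0 genes were called in 15 of 23 alternatives. Among these 15 were DESeq2 size factors, all 33 libraries, 4 dose groups, the floor rounded up to 1, vehicle added to the reference and the replicate block. Another was a minimum absolute log2 fold change of 0.5 set on the main result. That result had 0 calls already, so this setting could only give 0. The column numbers did not pair the libraries: deviations of same-numbered libraries correlated at -0.06 to 0.09 over 18 pairs, and the replicate block gave 0 calls, with log2 fold changes of 0.44 for HSPA5 and 1.07 for HMOX1. DESeq2 called 44 genes, limma voom 1, no filter on low counts 54, and leaving out 1 µM number 1 with 3 µM number 3 called 2. Leaving out 1 library gave 0 to 14 calls, HMOX1 log2 fold changes of 0.98 to 1.37 and HSPA5 ones of 0.37 to 0.55. Without the filter HSPA5 (0.47) and HMOX1 (1.21) passed the threshold, as did MANF, SDF2L1, PDIA4, HSP90B1, CRELD2, ERO1B, DDIT3, GCLM, KLF6, TIPARP, CYP1B1, ANKRD1, DAZAP2, MAPK1IP1L, RHOB, MAP3K14, ANXA1 and XBP1 among the genes named. CYP1A1 ranged from -0.49 to -0.15 with 1 library left out and was -0.74 with vehicle added to the reference. For 1 µM against the low doses, 3 µM against the low doses, 0.3 against 0.1 µM, the onset doses against vehicle and 6 µM against the onset doses, in that order, DESeq2 called 4, 25, 3, 61 and 57 genes, and no filter gave 21, 81, 19, 174 and 125. A fit of only the libraries compared gave 37 for 3 µM against the low doses, 2 for 0.3 against 0.1 µM, 0 against vehicle and 152 for 6 µM. Without 1 µM number 1 and 3 µM number 3 together the counts were 1 for 1 µM, 46 for 3 µM and 16 against vehicle. Leaving out 1 library gave 0 to 35 for 3 µM, 0 to 36 against vehicle and 0 to 53 for 6 µM. The cause was not tested.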
